A study of Danio rerio with 12 samples.

Results

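The 8 genes described here encode the core cardiac transcription factors of the GATA, Nkx2, Mef2c and Islet families: gata4, gata5, gata6, nkx2.5, nkx2.7, mef2ca, mef2cb and isl1. They were picked by gene symbol from the 2 deposited tables, which list 21570 genes for the hand2 loss-of-function experiment and 21119 genes for the gain-of-function experiment, and each of the 8 has 1 row in both tables. GATA factors are zinc finger proteins that bind the GATA motif, and gata4, gata5 and gata6 act in overlapping ways in the specification of heart and endoderm. Nkx2 proteins are homeodomain factors of the cardiac progenitor field, Mef2c proteins are MADS box factors that activate muscle differentiation genes, and Isl1 is a LIM homeodomain factor that marks cardiac cells added to the heart at its poles as well as several kinds of neuron. Mef2c proteins are held in check by class IIa histone deacetylases, and GATA proteins bind the Fog (Zfpm) cofactors.

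The study asked which genes in embryonic heart muscle cells depend on Hand2, a basic helix-loop-helix transcription factor needed for the heart precursors to migrate and fuse at the midline. Cells carrying a fluorescent reporter driven by the cardiomyocyte promoter myl7 were sorted from zebrafish embryos at 20 hpf (hours post-fertilization; EGFP in the loss-of-function experiment, and named as EGFP in one place and mCherry in another for the gain-of-function experiment), and RNA was sequenced in 3 libraries for each of 4 groups. The hand2 FLD-/- group is homozygous for an allele, FLD, that lacks the hand2 coding region, and its controls are hand2 FLD+/? siblings, which are either wild type or heterozygous and were not told apart. The hand2 OE group carries a myl7:hand2-p2a-EGFP transgene, so that extra Hand2 is made only once the myl7 promoter is active in the myocardium, and its controls are WT siblings. The number of embryos behind each library is not given in the sources used here. The limma p-values rest on the spread between libraries, with the variance of a gene drawn in part from other genes. In bulk RNA, fewer cells of a type and less RNA per cell cannot be told apart.

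The values are normalized read counts, scaled by the authors so that the libraries within an experiment are comparable, and the experiments were scaled separately. Library totals recovered from the scaling were 6850000 to 7660000 reads in hand2 FLD-/- libraries and 6530000 to 6770000 reads in hand2 FLD+/? libraries, so each mutant library was deeper than each of its controls, against 5000000 to 5770000 reads in hand2 OE and 5500000 to 5670000 reads in WT libraries. hand2 itself had 149, 427 and 45 normalized read counts in hand2 FLD-/- libraries and 2228, 2336 and 2380 in hand2 FLD+/? libraries. All 3 mutant libraries thus held hand2 reads, most of them in replicate 2, and the main results are also given without that library. The allele was made by cutting in the 5′ and 3′ UTRs, so that the gene's row, which spans 1866 bases, includes sequence outside the deletion, and where in the gene these reads lie was not tested. In hand2 OE libraries hand2 had 2159, 1939 and 2102 normalized read counts, against 1671, 1667 and 1611 in WT libraries, a log2 fold change of 0.32 (limma adjusted p = 0.00837) that is past the p threshold but not the fold threshold used below. hand2 is covered at 0.996 normalized read counts per base of its span in this experiment and at 0.676 in the loss-of-function experiment, a density at which normalized values fell with depth (given with nkx2.5 below), and the part of this in its fold changes was not tested. Cardiomyocyte markers were abundant in every library: the summed level of the myocardial list was 28768 to 30493 normalized read counts in hand2 FLD-/- and 45252 to 48465 in hand2 FLD+/? libraries, and 54019 to 60064 in hand2 OE and 56791 to 62095 in WT libraries.

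In hand2 FLD-/- cardiomyocytes, isl1 and gata4 fell, gata5 was lower by less than 1.5-fold, and the libraries of nkx2.5, mef2ca and mef2cb overlapped between the groups. A gene was called when its limma adjusted p was at most 0.05 and its change at least 1.5-fold, taken on the scale log2 of the value plus 1. By this rule 2 of the 8 genes fell, where 9.43% of all 17877 tested genes fell, and 0 of the 8 rose, where 9.09% rose. By adjusted p alone, 5 of the 8 passed (1 higher, 4 lower), against 29.6% of all tested genes, and the 2 groups of libraries did not overlap for 5 of the 8, against 44.3% of all tested genes. The median log2 fold change of the 8 was -0.23, against 0.0032 for all tested genes. Without hand2 FLD-/- replicate 2 again 2 of the 8 fell and 0 rose, and the log2 fold changes of gata5, gata6 and nkx2.7 were -0.55, -0.19 and 0.24.

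**Figure D1:**
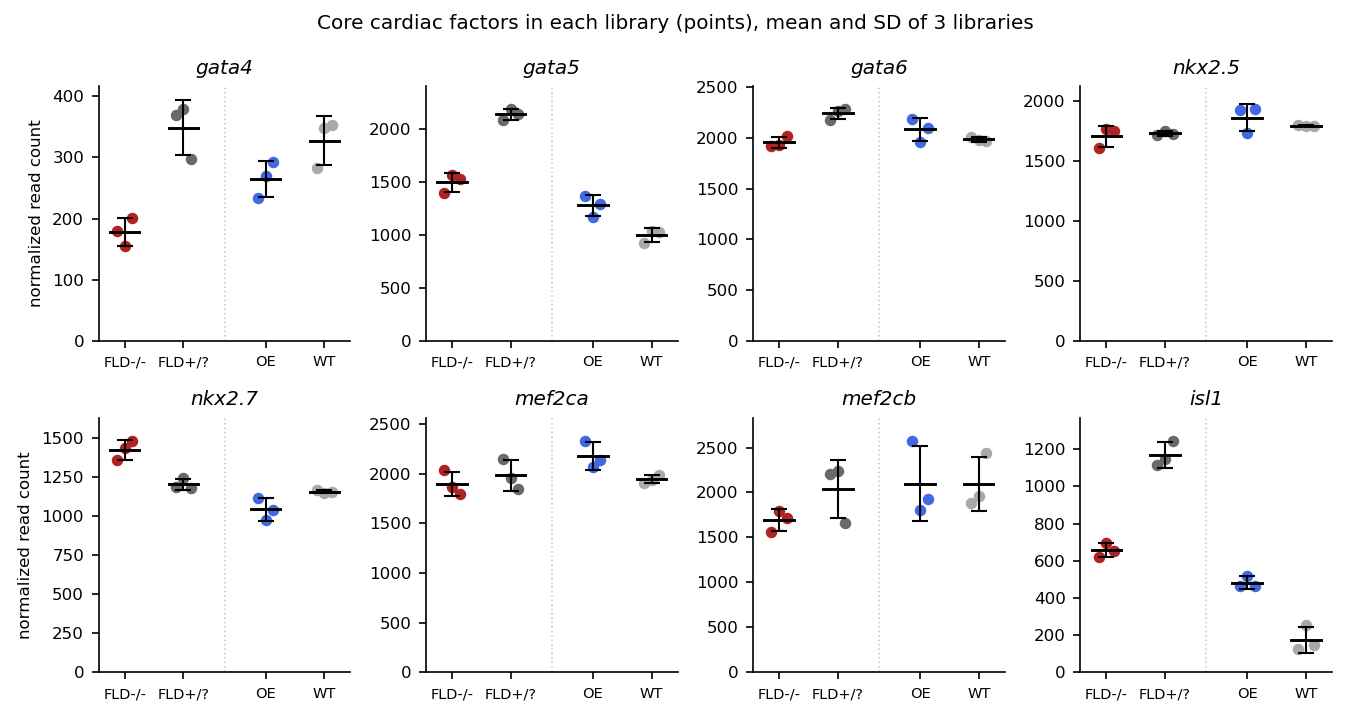
Normalized read count (vertical axes, from 0) of each of the 8 genes in each library of hand2 FLD-/-, hand2 FLD+/?, hand2 OE and WT siblings. Points are libraries, horizontal lines the mean and bars the SD of 3 libraries, and the dotted line parts the experiments, which were scaled separately. isl1 lies between 622 and 696 in hand2 FLD-/- and between 1113 and 1246 in hand2 FLD+/? libraries, whereas mef2cb overlaps in both experiments.

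isl1 is a single gene on chromosome 5 (danRer11, 40728613 to 40734045, reverse strand). It had 622, 696 and 654 normalized read counts in hand2 FLD-/- libraries, against 1113, 1145 and 1246 in hand2 FLD+/? libraries. Every mutant library thus lay below every control library, with a wide gap between the groups. Mutant libraries averaged 657 ± 37.1, against 1168 ± 69.4 in hand2 FLD+/? libraries (SD, n = 3 each), which is 1.78-fold lower. The log2 fold change was -0.83 ± 0.07 (SE), with a 95% interval of -0.99 to -0.67 and a limma adjusted p of 3.50e-05. Without hand2 FLD-/- replicate 2 it was -0.87. The call held when each library was left out in turn.

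gata4 lies on chromosome 20 (52952116 to 52967878, reverse strand) and encodes a GATA factor with conserved roles in heart morphogenesis. It had 180, 155 and 201 normalized read counts in hand2 FLD-/- libraries, against 370, 379 and 297 in hand2 FLD+/? libraries. The groups did not overlap, and hand2 FLD+/? replicate 3 was the lowest of its group. The mean of 179 ± 23.0 in hand2 FLD-/- was 1.95-fold lower than the 349 ± 45.0 in hand2 FLD+/?, and the log2 fold change was -0.96 ± 0.15 (SE), with a limma adjusted p of 0.00126. It was -0.86 without hand2 FLD-/- replicate 2 (limma adjusted p = 0.00485), and the call held in each of the 6 fits that left out 1 library.

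gata5, on chromosome 23 (7379728 to 7391028, forward strand), is the paralog known in zebrafish for its part in making heart and endoderm. gata5 had 1396, 1571 and 1527 normalized read counts in hand2 FLD-/- libraries, against 2087, 2190 and 2147 in hand2 FLD+/? libraries. The groups were far apart relative to their spread, yet the difference stayed under the fold threshold. The log2 fold change was -0.52 ± 0.05 (SE), 1.43-fold lower, with a 95% interval of -0.63 to -0.40 and a limma adjusted p of 9.86e-05. That interval includes a 1.5-fold decrease.

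gata6, on chromosome 2 (4207209 to 4217887, forward strand), had 1917, 1932 and 2017 normalized read counts in hand2 FLD-/- libraries, against 2178, 2262 and 2282 in hand2 FLD+/? libraries. The mutant libraries were all lower, by a small margin. The log2 fold change was -0.20 ± 0.04 (SE), with a limma adjusted p of 0.00511. The reads recovered by undoing the scaling were 2182, 2039 and 2047 in hand2 FLD-/- and 2124, 2120 and 2170 in hand2 FLD+/? libraries. These overlapped, but they are not corrected for the greater depth of the mutant libraries. With libraries rescaled to equal totals the limma adjusted p was 0.0161, and with 1 library left out it ran between 0.0080 and 0.0267. Limma without a mean-variance trend gave an adjusted p of 0.11.

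The normalized values of the Nkx2 pair differed in how they compared with the controls, within the limit of depth given below. nkx2.5 (chromosome 14, 24241241 to 24244034, forward strand) had 1610, 1766 and 1754 normalized read counts in hand2 FLD-/- libraries, against 1716, 1752 and 1731 in hand2 FLD+/? libraries. Its groups overlapped, with one mutant library below and the others above all controls, and its log2 fold change of -0.02 had a 95% interval of -0.13 to 0.09 (limma adjusted p = 0.78). nkx2.7 (chromosome 8, 50284859 to 50287949, reverse strand), a second early cardiac Nkx2 gene of zebrafish, had 1355, 1431 and 1481 in hand2 FLD-/- libraries, against 1188, 1242 and 1178 in hand2 FLD+/? libraries. Every mutant library was higher, the opposite direction to the GATA genes and isl1. The log2 fold change of nkx2.7 was 0.24 ± 0.05 (SE), with a limma adjusted p of 0.00743, under the fold threshold. Without a trend limma gave it an adjusted p of 0.08.

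Normalized values varied with depth according to how densely a gene was covered, a limit that bears on these results. No gene exceeded 1.52 normalized read counts per base of its span in the loss-of-function experiment or 1.64 in the gain-of-function experiment, and within groups the normalized values of the densest genes fell with depth. Among genes with at least 0.5 normalized read counts per base, the median slope of the log2 value on log2 depth was -0.84 over 59 genes in the loss-of-function and -0.66 over 49 genes in the gain-of-function experiment, where a value free of depth has a slope of 0. Between 0.1 and 0.5 per base it was -0.58 over 1236 genes and -0.48 over 887 genes. In the loss-of-function experiment isl1 (0.168), gata5 (0.161), gata6 (0.196) and nkx2.7 lay in that range. Below 0.01 per base the slope was positive, at 0.63 over 4113 genes and 0.40 over 4237 genes. nkx2.5 had 0.62 and 0.66 normalized read counts per base in the 2 experiments, and nkx2.7 had 0.42 and 0.36. The span is the genomic length with introns, not the transcript. The long genes mef2ca and mef2cb thus scored 0.0175 and 0.0145 in the loss-of-function experiment at normalized read counts similar to those of nkx2.5. The reads recovered for nkx2.5 were 1832, 1864 and 1780 in hand2 FLD-/- libraries and 1673, 1642 and 1646 in hand2 FLD+/? libraries, with no overlap and in the order of depth of the groups. Those for nkx2.7 were 1542, 1510 and 1503 in hand2 FLD-/- libraries and 1158, 1164 and 1120 in hand2 FLD+/? libraries. On this unscaled measure both genes were higher in every mutant library, but each mutant library was also deeper than each control. Reads recovered rise with depth, so by themselves they cannot show a change. Given the slopes above, a flat normalized value of nkx2.5 cannot be read as no change either. For nkx2.7 the groups differed in recovered reads by a larger factor than in depth, and its normalized values were higher as well. The part of depth in these values was not tested.

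The Mef2c paralogs are long genes, mef2ca on chromosome 10 (43544814 to 43655449, reverse strand) and mef2cb on chromosome 5 (48179340 to 48307804, reverse strand). mef2ca had 2034, 1863 and 1794 normalized read counts in hand2 FLD-/- libraries, against 2152, 1961 and 1844 in hand2 FLD+/? libraries. The groups overlapped, and the log2 fold change was -0.06 with a 95% interval of -0.21 to 0.08 (limma adjusted p = 0.51). mef2cb had 1557, 1798 and 1714 in hand2 FLD-/- libraries, against 2206, 2242 and 1663 in hand2 FLD+/? libraries. One control library, replicate 3, lay among the mutants, and the log2 fold change of -0.26 had a 95% interval of -0.50 to -0.02 and did not pass the test (limma adjusted p = 0.105). Without that library, the log2 fold change was -0.40, with a limma adjusted p of 0.00273. The fits that left out any other library did not pass. They gave log2 fold changes between -0.31 and -0.18 and limma adjusted p between 0.111 and 0.297.

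In hand2 OE cardiomyocytes isl1 rose, gata5 was higher by less than 1.5-fold, and the other 6 genes did not pass the test. Of the 8 genes, 1 rose, where 2.53% of all 16510 tested genes rose, and 0 fell, where 1.57% fell. By adjusted p alone 2 passed, both higher, against 6.63% of all tested genes. The groups did not overlap for 4 of the 8, against 26.1% of all tested genes, and the median log2 fold change of the 8 was 0.06, against 0.0015 for all tested genes.

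isl1 had 466, 521 and 462 normalized read counts in hand2 OE libraries, against 124, 253 and 149 in WT libraries. Every OE library lay above every WT library, and the WT libraries differed among themselves by more than the OE libraries did. The mean was 483 ± 33.0 in hand2 OE and 175 ± 68.4 in WT (SD, n = 3 each), which is 2.75-fold higher. The log2 fold change was 1.52 ± 0.24 (SE), with a 95% interval of 0.98 to 2.06 and a limma adjusted p of 0.00808. The call was lost in limma without a mean-variance trend (adjusted p = 0.0926). It was kept in each fit that left out 1 library, where the limma adjusted p ran between 0.00145 and 0.0491 and the log2 fold change as low as 1.31 and as high as 1.82.

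gata5 had 1371, 1174 and 1298 normalized read counts in hand2 OE libraries, against 927, 1041 and 1031 in WT libraries. The OE libraries were all higher. The log2 fold change was 0.36 ± 0.08 (SE), 1.28-fold, with a 95% interval of 0.18 to 0.53 and a limma adjusted p of 0.0279, which went above 0.05 in 5 of the 6 fits that left out 1 library (0.0282 to 0.0956), with the replicate number as a block (0.0802) and without a trend (0.208).

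**Figure D2:**
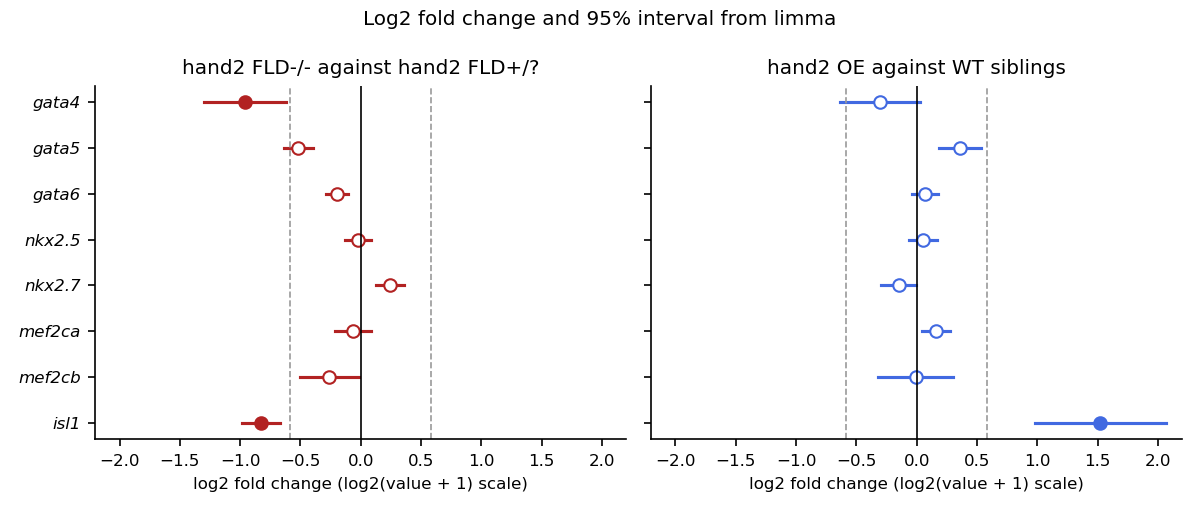
Log2 fold change (horizontal axis) of each of the 8 genes in hand2 FLD-/- against hand2 FLD+/? (left) and in hand2 OE against WT siblings (right), with 95% intervals from limma. Filled points were called and dashed lines mark 1.5-fold. isl1 is at -0.83 on the left and 1.52 on the right, and gata5 at -0.52 and 0.36.

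gata4 had 233, 270 and 292 normalized read counts in hand2 OE libraries, against 282, 348 and 353 in WT libraries. The groups overlapped, with a log2 fold change of -0.30 whose 95% interval of -0.64 to 0.03 includes 0 (limma adjusted p = 0.285). gata6 had 2190, 1962 and 2094 in hand2 OE libraries, against 2009, 1981 and 1966 in WT libraries. Its values overlapped too, with a log2 fold change of 0.07 (limma adjusted p = 0.491).

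nkx2.5 had 1927, 1734 and 1935 normalized read counts in hand2 OE libraries, against 1803, 1792 and 1798 in WT libraries. The WT libraries were nearly identical and fell within the OE range, and the log2 fold change was 0.05 with a 95% interval of -0.07 to 0.17. nkx2.7 had 1117, 972 and 1038 in hand2 OE libraries, against 1164, 1146 and 1154 in WT libraries. All OE libraries were lower, but the log2 fold change of -0.15 did not pass the test (limma adjusted p = 0.23). mef2ca had 2333, 2063 and 2141 in hand2 OE libraries, against 1908, 1942 and 1991 in WT libraries. All OE libraries were higher, and the log2 fold change of 0.16 did not pass either (limma adjusted p = 0.112). mef2cb had 2576, 1800 and 1923 in hand2 OE libraries, against 1887, 1965 and 2443 in WT libraries, with a log2 fold change of -0.01 (95% interval -0.32 to 0.30).

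hand2 OE replicate 2, the deepest library of its group at 5770000 reads, was the lowest OE library for gata5, gata6, nkx2.5, nkx2.7, mef2ca and mef2cb. It was the highest OE library for isl1. The part of depth in these values was not tested.

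isl1 and gata5 were both lower in hand2 FLD-/- and higher in hand2 OE than in their own controls. Set side by side on scales that were set separately, isl1 averaged 657 in hand2 FLD-/- and 1168 in hand2 FLD+/?, and 483 in hand2 OE and 175 in WT libraries. On these separate scales the control groups differed more from each other than either pair did. gata5 averaged 1498 in hand2 FLD-/- and 2141 in hand2 FLD+/?, and 1281 in hand2 OE and 999.7 in WT libraries. The difference between the experiments was not tested. The normalized libraries summed to 6728865 to 6965321 in the loss-of-function experiment and 5322231 to 5425823 in the gain-of-function experiment. For both genes the control groups differed by a larger factor than these sums did. An order of the closer groups depends on these scales, so no order across the experiments is given.

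The ratio of 2 genes within a library does not depend on how that library was scaled, but it is not free of depth. In the loss-of-function experiment gata4 (0.0167 per base) lay between 0.01 and 0.1 per base, where the median slope on depth was -0.21. gata5 and gata6 lay where it was -0.58, and nkx2.5 and nkx2.7 also lay in different ranges. The part of depth in the ratios was not tested, and no ratio passed 0.05 in the test given below. The log2 ratio of gata5 to gata6 was -0.46, -0.30 and -0.40 in hand2 FLD-/- libraries, against -0.06, -0.05 and -0.09 in hand2 FLD+/? libraries. In hand2 OE libraries it was -0.68, -0.74 and -0.69, against -1.11, -0.93 and -0.93 in WT libraries. gata5 was thus lower relative to gata6 in every mutant library and higher relative to gata6 in every OE library. The difference was -0.32 in hand2 FLD-/- and 0.29 in hand2 OE. The log2 ratio of gata5 to gata4 was higher by 0.44 in hand2 FLD-/- and by 0.66 in hand2 OE. That of gata6 to gata4 was higher by 0.76 and 0.37, each with no overlap. In these libraries gata4 was thus lower relative to both paralogs in either experiment. Both ratios share the gata4 values, so they are not separate results.

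The log2 ratio of nkx2.7 to nkx2.5 was -0.25, -0.30 and -0.24 in hand2 FLD-/- libraries, against -0.53, -0.50 and -0.55 in hand2 FLD+/? libraries. In hand2 OE libraries it was -0.79, -0.83 and -0.90, against -0.63, -0.64 and -0.64 in WT libraries. The differences were 0.26 and -0.20, and neither pair of groups overlapped. The ratio of mef2cb to mef2ca overlapped in both experiments, with differences of -0.19 and -0.17. In an exact two-sided permutation test 3 libraries against 3 cannot go below p = 0.1, the value of groups without overlap. Each of the 8 ratios of GATA and Nkx2 genes reached p = 0.1 in this permutation test (0.125 after adjustment over the 10 ratios tested). The Mef2c ratio had p = 0.3 in the same exact permutation test in each experiment, so no ratio passed 0.05. How often ratios of other gene pairs do not overlap was not tested. Of single genes, 44.3% did not overlap in hand2 FLD-/- and 26.1% in hand2 OE. The GATA ratios within an experiment are not separate results, since gata5 to gata6 follows from the other GATA ratios.

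**Figure D3:**
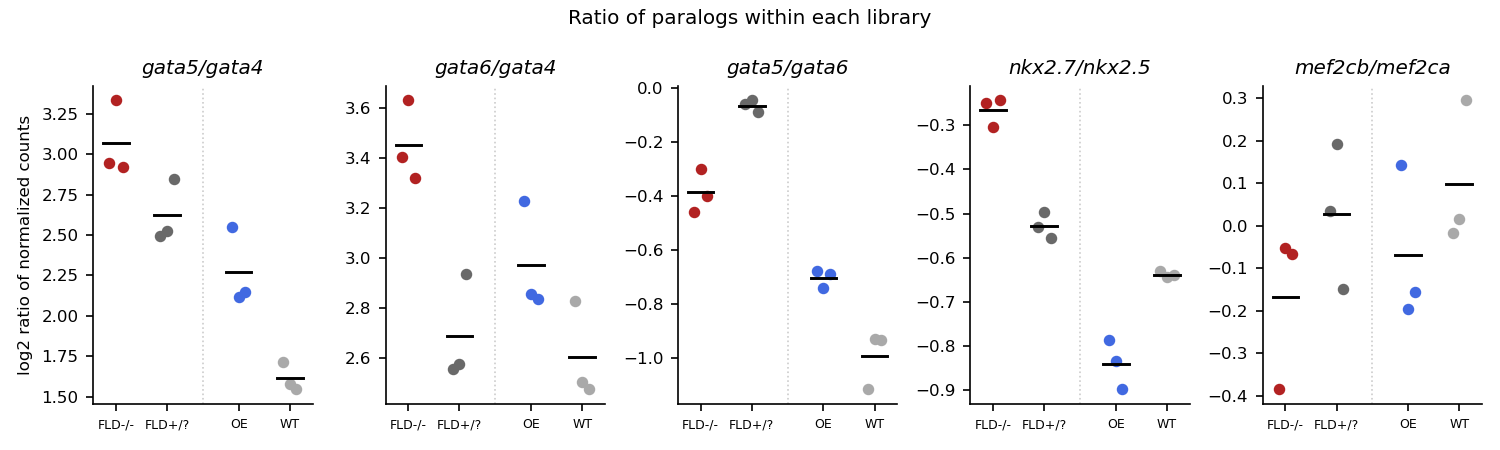
Log2 ratio of normalized read counts of paralogs in each library (vertical axes, each with its own range) for hand2 FLD-/-, hand2 FLD+/?, hand2 OE and WT siblings. Points are libraries and lines are means of 3. gata5/gata6 lies at -0.39 in hand2 FLD-/- and -0.07 in hand2 FLD+/? on average, and at -0.70 in hand2 OE and -0.99 in WT.

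The genes whose pattern was most like that of each factor were found by the mean absolute difference of log2 values over the 12 libraries, each centred on its experiment's mean, over the 10738 genes that averaged 50 or more in both experiments. For isl1 they were alcamb, an adhesion molecule of the immunoglobulin family (difference 0.117, log2 fold change -0.93 in hand2 FLD-/- and 1.59 in hand2 OE), and adam8a, a membrane metalloprotease (difference 0.134), which was lower in hand2 FLD-/- by a log2 fold change of -0.84 and higher in hand2 OE. For gata5 they were bambia, a BMP pseudoreceptor (0.0524), and tdgf1, a Nodal coreceptor (0.0535). The other nearest genes were tecrb and fibinb for gata4, COX5B and mapkapk2a for gata6, ppp2cb and hmgn6 for nkx2.5, hspa9 and c1qbp for nkx2.7, daam1b and dvl2 for mef2ca, and eif2ak3 and tuba1b for mef2cb, at differences between 0.0128 and 0.122. A small difference is easily met by a gene that itself hardly varies, as nkx2.5 and gata6 did.

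The other genes of these families were measured as well. Of 3 other GATA genes tested in the loss-of-function experiment, 2 rose in hand2 FLD-/- and 0 fell. gata3, known from ectoderm and the nervous system, had 487, 489 and 417 normalized read counts in hand2 FLD-/- libraries, against 58, 115 and 91 in hand2 FLD+/? libraries, a log2 fold change of 2.44 ± 0.23 (SE) with limma. gata2a, an endothelial and blood regulator, had 426, 506 and 414 in hand2 FLD-/- libraries, against 33, 100 and 45 in hand2 FLD+/? libraries, a log2 fold change of 3.05 ± 0.35. They thus moved opposite to gata4 in the same libraries, with no overlap between groups, and without hand2 FLD-/- replicate 2 the log2 fold changes were 2.398 for gata3 and 2.961 for gata2a. Most endothelial and endocardial markers moved with them: 7 of 9 tested were called as risen and 0 as fallen, among them tie1 (log2 fold change 3.01), cdh5 (2.85) and sox7 (2.63). Their summed level was 5822 to 6074 normalized read counts in hand2 FLD-/- and 1687 to 2010 in hand2 FLD+/? libraries. nfatc1 went the other way without overlap, at 147, 83 and 120 in hand2 FLD-/- against 282, 177 and 157 in hand2 FLD+/? libraries. Its log2 fold change of -0.80 was not called (limma adjusted p = 0.0557). The part of these markers in the GATA values was not tested. None of the 2 other GATA genes tested was called in hand2 OE.

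Of 6 other Nkx2 genes tested in hand2 FLD-/-, nkx2.9 (log2 fold change 3.60) rose and nkx2.4a (-2.49) fell, both at means below 50 over the 6 libraries. They are named because each count is 1, after their values were seen. Of 5 tested in hand2 OE, 0 were called. Of 4 other Mef2 genes tested in hand2 FLD-/- and 2 in hand2 OE, 0 were called, and of the 2 other Islet genes tested, isl2a and isl2b, 0 were called in either experiment. Some passed the p threshold but not the fold threshold, without overlap. In hand2 FLD-/- these were mef2aa (log2 fold change -0.44, limma adjusted p = 0.000175), isl2a (-0.31, 0.0236) and isl2b (0.53, 0.00158). In hand2 OE it was mef2d (-0.22, limma adjusted p = 0.0383). isl2a and isl2b are also neuronal genes, as isl1 is.

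**Figure D4:**
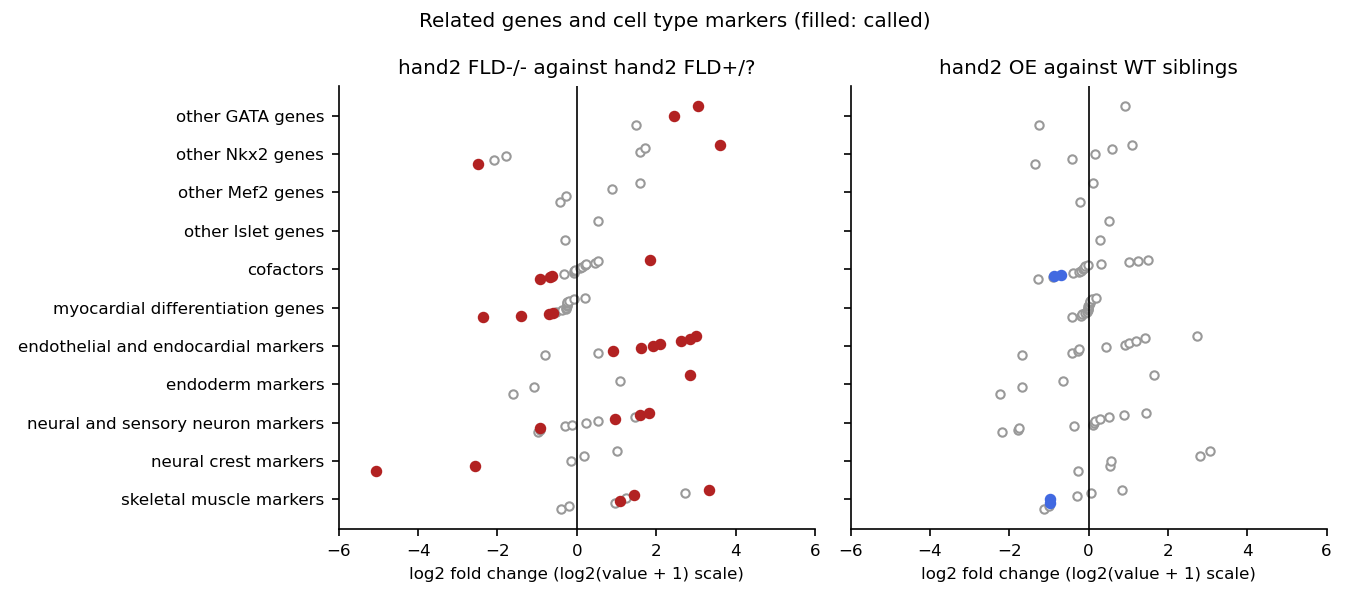
Log2 fold change (horizontal axis) of each tested gene of the related families, cofactors, myocardial genes and marker lists, in hand2 FLD-/- against hand2 FLD+/? (left) and in hand2 OE against WT siblings (right). Filled points were called and open points were not. In the left panel 7 of 9 endothelial and endocardial markers are filled, all above 0.

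Among cofactors of these proteins, 14 were tested in the loss-of-function experiment, of which 1 rose and 3 fell in hand2 FLD-/-. ldb2a, which encodes an adaptor of LIM domain proteins such as Isl1, had 383, 331 and 380 normalized read counts in hand2 FLD-/- libraries, against 104, 102 and 97 in hand2 FLD+/? libraries (log2 fold change 1.84). hdac9b, a class IIa deacetylase, had 710, 724 and 768 in hand2 FLD-/- libraries, against 1255, 1171 and 1079 in hand2 FLD+/? libraries (-0.67). Neither pair of groups overlapped. hdac7a, of the same class, had a log2 fold change of -0.92, a call that was lost in 4 of the 6 fits that left out 1 library, at limma adjusted p between 0.0574 and 0.0890 in those 4. The third cofactor that fell was srfa (-0.64), which encodes serum response factor. zfpm2b, a Fog cofactor (log2 fold change 0.54, limma adjusted p = 0.0269), and smarcd3b (0.21, 0.0313) were higher without overlap. They passed the p threshold but not the fold threshold. Other class IIa deacetylases did not pass. hdac4 was higher without overlap (0.24, limma adjusted p = 0.0856), and hdac5 was lower with overlap (-0.33, 0.176).

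Of 15 cofactors tested in hand2 OE, 0 rose and 2 fell. hdac5, another class IIa deacetylase, had 227, 209 and 192 normalized read counts in hand2 OE libraries, against 319, 435 and 399 in WT libraries (log2 fold change -0.86). zfpm2a, a Fog cofactor of GATA proteins, had 273, 305 and 291 in hand2 OE libraries, against 402, 542 and 484 in WT libraries (-0.71). Each call was lost in limma without a trend (adjusted p = 0.0839 for hdac5 and 0.107 for zfpm2a). Each was also lost in some fits that left out 1 library. zfpm1, also a Fog cofactor, was lower (log2 fold change -0.38, limma adjusted p = 0.0133) and hdac4 was higher (0.32, 0.0467). Both passed the p threshold but not the fold threshold, without overlap.

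Myocardial differentiation genes, many of which are known targets of these factors, are represented by 15 rows, since actc1a is listed under 2 gene identifiers. In hand2 FLD-/- 4 fell and 0 rose: myh6, the atrial myosin heavy chain, had a log2 fold change of -2.37, atp2a2a, the cardiac calcium pump, -1.41, ttn.2, a titin gene, -0.70, and mybpc3, a thick filament protein, -0.60. The median over the 15 was -0.27. Others passed the p threshold but not the fold threshold, all lower without overlap. They were tnni1b (log2 fold change -0.39, limma adjusted p = 6.24e-05), tnnt2a (-0.24, 0.00215), myl7 (-0.24, 0.00413) and ryr2b (-0.53, 0.00645). The more abundant actc1a row (-0.26, 0.0143), cmlc1 (-0.19, 0.0256) and smyd1b (-0.24, 0.0352) were the rest. nppb was higher (0.22) and did not pass (limma adjusted p = 0.147). In hand2 OE 0 of the 15 were called, with a median of -0.01. nppa (log2 fold change -0.43, limma adjusted p = 0.00411) and ryr2b (-0.20, 0.0211) were lower without overlap. Both passed the p threshold but not the fold threshold. hand2 OE replicate 2, the deepest of its group, was the lowest OE library for every row but nppb. The limit of depth given with nkx2.5 may bear on these rows in both experiments, and the part of depth in them was not tested.

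Markers of other cell types also moved with the hand2 FLD-/- libraries. Of 11 neural and sensory neuron markers tested, 3 rose (sox2, log2 fold change 1.81, elavl4, 1.59, and snap25a, 0.95) and 1 fell (elavl3, -0.92), with a summed level of 3069 to 3436 normalized read counts in hand2 FLD-/- and 2646 to 3180 in hand2 FLD+/? libraries. The calls of elavl4 and snap25a were lost in limma without a trend, and that of snap25a also in 3 of the 6 fits that left out 1 library (limma adjusted p = 0.0525, 0.0645 and 0.0695). isl2a and isl2b together held 1537 to 1823 of the neural sum in hand2 FLD-/- and 1486 to 1570 in hand2 FLD+/? libraries. Of 5 neural crest markers 2 fell, twist1b (-5.06) and ednrab (-2.56), which are also mesenchymal genes. twist1b had 42, 128 and 5 normalized read counts in hand2 FLD-/- libraries, against 1001, 1084 and 1143 in hand2 FLD+/? libraries, so replicate 2 was the highest mutant library for twist1b as for hand2. Of 8 skeletal muscle markers 3 rose, and of 4 endoderm markers 1 rose (foxa3, 2.85). Erythroid, epidermal, hatching gland and yolk markers had 0 calls of 8, 7, 3 and 3 rows tested.

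In hand2 OE, 2 of 7 skeletal muscle markers fell, ryr1b (-0.97) and tnnt3b (-0.98), both lost in limma without a trend. Of 14 alternative fits, that one included, ryr1b lost its call in 5 and tnnt3b in 7. No other marker list had a call. The summed level of the neural crest list nonetheless did not overlap, at 975 to 1283 normalized read counts in hand2 OE and 657 to 763 in WT libraries, with 0 calls of 5. Its members twist1b (log2 fold change 0.55, limma adjusted p = 0.0496) and ednrab (0.57, limma adjusted p = 0.0392) passed the p threshold but not the fold threshold. sox10 (3.06, limma adjusted p = 0.196) and foxd3 (2.81, 0.174) were higher without overlap at low values and did not pass, and tfap2a overlapped. The summed hatching gland list did not overlap either, at 520 to 594 in hand2 OE and 420 to 448 in WT libraries. Almost all of that sum was cd63, at 518, 547 and 588 in hand2 OE against 439, 419 and 428 in WT libraries. The other markers of the list, he1.1, ctslb and klf17, were too low to be tested. The skeletal muscle list was at 1555 to 1855 in hand2 OE and 2219 to 2624 in WT libraries. The neural and sensory neuron list, which bears on isl1, had 0 calls of 11 and a summed level of 1569 to 2131 normalized read counts in hand2 OE and 1227 to 1677 in WT libraries. The part of other cells in the values of the 8 factors was not tested.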

How the data were processed

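Normalized read counts per gene were taken as deposited for 12 libraries of sorted zebrafish cardiomyocytes. The authors made SMART-Seq HT libraries, trimmed reads with Trimmomatic 0.39, aligned them to danRer11 with STAR 2.7.10a, counted with featureCounts 2.0.2 and scaled with DESeq2 1.30.1 (tools per the labels). The deposited values are rounded to whole numbers and were therefore treated as a score, not as counts, so no count model was used. Whether counting used strand is not given in the sources used here, and overlapping or antisense genes cannot be told apart. Each experiment was tested alone with limma 3.58.1 (R 4.3.3, with trend) on log2(value + 1) for genes with a mean of at least 5, with Benjamini-Hochberg adjustment over all genes tested. Calls needed an adjusted p of at most 0.05 and a 1.5-fold change. Depth was estimated from the spacing of the rounded values, and the estimator and tests were checked on simulated data. Intervals cover the spread between libraries only, with the variance of a gene drawn in part from other genes.

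The members and lists were chosen with earlier results of these data known. The text names the 8 factors and hand2, for each list up to 3 genes with the largest change among those called without overlap that averaged 50 or more, and the 2 genes nearest in pattern to each factor. mybpc3, srfa, elavl3 and myod1 lie outside this rule and were named after their values were seen, to complete short counts. List genes that were not called, such as nfatc1, mef2aa and cd63, were likewise named after their values were seen. Alternatives were pseudocounts of 0.5 and 5, no filter or a mean of 20, rescaling to equal totals or upper quartiles, limma without trend, other fold thresholds, a replicate block and each library left out. No sequences are shown.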

Additional observations from a re-analysis of the deposited data

How the results depend on the processing

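The 2 members that fell in hand2 FLD-/- (isl1 and gata4) kept their calls under every alternative except a fold change of at least 2, which left 0. Without a fold threshold 4 members were lower and 1 higher. In hand2 OE the 1 member that rose (isl1) became 0 in limma without trend and 2 without a fold threshold. Over all genes, 1685 fell and 1625 rose in hand2 FLD-/-. Without a fold threshold these were 2642 and 2650, and at 2-fold 1190 fell and 915 rose. In hand2 OE 259 fell and 418 rose, against 70 and 133 in limma without trend, 525 lower without a fold threshold, and 119 and 268 at 2-fold. Leaving out 1 library gave 124 to 256 lower and 187 to 323 higher genes in hand2 OE, and 1378 to 1663 lower and 1346 to 1605 higher genes in hand2 FLD-/-. The cause was not tested, other than that fewer libraries entered each fit.

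nkx2.5 in hand2 FLD-/- changed sign with equal library totals (0.0234), and its range was -0.0443 to 0.0223 with 1 library left out. mef2cb in hand2 OE ranged between -0.16 and 0.11. Neither was called in any fit.

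Same-numbered libraries correlated weakly, at 0.037, 0.055 and 0.035 in the loss-of-function experiment, where each library correlated best with its own number. In the gain-of-function experiment the correlations were -0.064, -0.071 and -0.010. Whether replicate numbers pair the libraries of the loss-of-function experiment was not settled by these values. With the replicate block 2 members fell and 0 rose in hand2 FLD-/- and 1 rose in hand2 OE, as without it. Over all genes the block gave 1613 lower and 1573 higher in hand2 FLD-/-, and 180 and 286 in hand2 OE. ryr1b and tnnt3b in hand2 OE lost their calls under it (limma adjusted p = 0.0508 and 0.0607).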
